A study of Mus musculus with 2 samples.

Results

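The 10 genes described here carry iron into the cell, store it, export it, sense it, or build haem from it: Tfrc, Fth1, Slc11a2, Slc40a1, Ireb2, Aco1, Alas1, Alad, Cpox and Fech. They were read on 2 mouse expression arrays through every probe set (a group of short probes designed against 1 transcript) annotated with exactly 1 of these symbols, which gave 29 probe sets of 45101 and 10 genes of 18194. The arrays, 1 per culture, carried the sample of the endothelial co-culture, in which cells labelled lymphoma were grown with cells of the vessel lining, and the sample of the serum culture, in which cells of that label grew in a medium with serum. The labels name no strain, genotype, age, added agent or culture time for either sample, nor the source of the endothelial cells, the medium of the co-culture, or a step that parted the cell types before RNA was taken. Medium, endothelial RNA and a response of the lymphoma cells therefore cannot be told apart, and fewer cells of a type cannot be told apart from less RNA per cell. With 1 array per culture no difference has a test, and no p-value is given.

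As background, transferrin-bound iron enters through the transferrin receptor, is reduced and carried out of the endosome by a divalent metal transporter, and is then used in mitochondria, stored in ferritin or exported by ferroportin. When iron is scarce, iron regulatory proteins bind stem-loops called iron-responsive elements. Binding protects the mRNA of the receptor and blocks translation of the mRNAs of ferritin and ferroportin, so part of this control leaves no trace in mRNA levels. Haem is built in a chain of enzymes that starts and ends in the mitochondrion, and dividing cells draw heavily on iron for haem, for iron-sulfur proteins and for ribonucleotide reductase.

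The cells did not show the markers of their label. Of 13 lymphocyte markers on the array 2 were measured, Coro1a and Lcp1, and the highest intensity among all 13 was 125 in co-culture and 75.5 in serum culture. Genes that define lymphocytes, among them Cd79a, Cd79b, Pax5, Cd3e and Ptprc, did not reach the floor on either array. The floor, 44.3, is the median taken over both arrays together. Lower values were set to it, and a gene or probe set counted as measured when either array exceeded it. Of 15 endothelial markers 3 were measured (Egfl7, Eng and Flt1), and the sum over all 15 was 918 in co-culture and 803 in serum culture. Egfl7 made up most of both sums. Flt1, the marker past 2-fold, had 26.4 in co-culture and 93.3 in serum culture, and Pecam1, Cdh5, Kdr and Tie1 did not reach the floor on either. Of 14 macrophage markers, which matter here because macrophages recycle iron and are rich in ferroportin, 3 were measured (Cd68, Fcgr1 and Adgre1). Their 14-gene sum was 399 in co-culture and 255 in serum culture, and Csf1r, Marco, Vsig4 and Cd163 were below the floor. Of 10 fibroblast markers 5 were measured, at most 81.0 in co-culture and 92.2 in serum culture, and the sum over all 10, those below the floor included, was 464 in co-culture and 385 in serum culture. Dim values ran higher on the co-culture array in general. The median over all probe sets was 50.7 there and 36.9 in serum culture. The part of this shift in the marker sums was not tested.

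All 10 genes were measured, and 9 of them had at least 200 intensity units on both arrays by their brightest probe set, the probe set that stands for the gene. Slc40a1, the iron exporter ferroportin, was at least 2-fold higher in co-culture. The other 9 lay within 2-fold, and 0 were at least 2-fold lower. Over all 11560 measured genes, 4.52% passed 2-fold on the higher side and 9.97% on the lower side, so a count of 1 in 10 is near the background. When the co-culture array was scaled to the bacterial hybridisation spikes, the counts over all genes were 352 higher and 1604 lower in place of 523 and 1152, and the median of all genes moved from -0.06 to -0.25 on the log2 scale. The median log2 difference of the 10 genes, co-culture minus serum, was 0.13, against -0.06 over all measured genes. It was above 0 for 7 genes and below 0 for 3, but spike scaling turned the median to -0.06 and left 5 genes above 0.

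**Figure D1:**
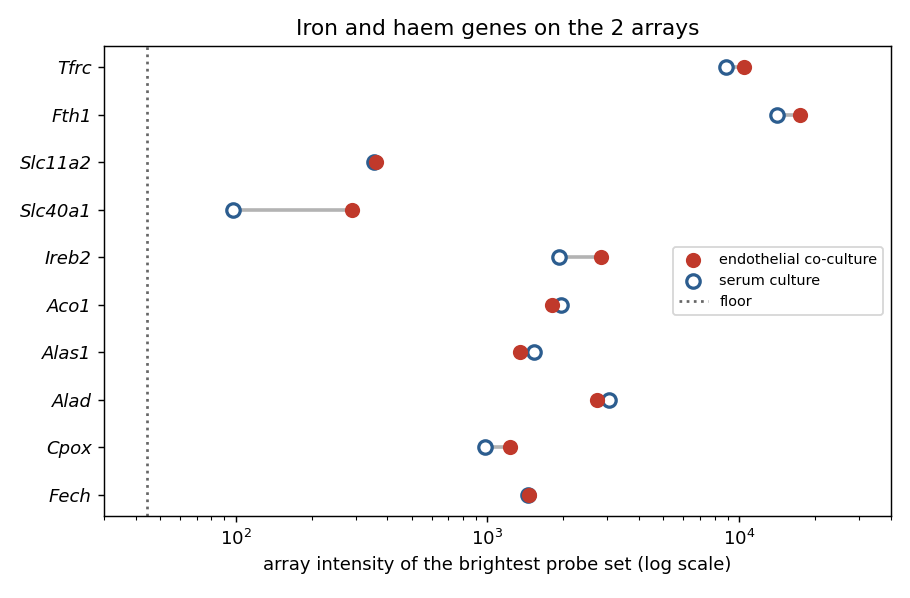
Intensity of the brightest probe set of each gene (log axis) on the endothelial co-culture array (filled) and the serum culture array (open), with the floor of 44.3 as a dotted line. Slc40a1 shows the widest gap (288 in co-culture, 97.1 in serum culture); intensities of different probe sets are not comparable as levels, so only the 2 points of a row should be compared.

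The error available is the disagreement among probe sets of 1 gene. Over all genes with at least 2 measured probe sets, the pooled within-gene SD of the log2 difference was 0.67 for the 1537 dimmer genes (mean intensity below 200) and 0.57 for the 3943 brighter ones. This error does not hold the variation from culture to culture. For 9 of the 10 genes the difference was smaller than this SD, as it was for 66.7% of all measured genes. Slc40a1 was the exception.

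Short promoter stretches are shown because the transferrin receptor gene is a known target of hypoxia-inducible factors, which bind a core of the letters ACGTG, and because the antioxidant factor NRF2, known to act on ferritin and ferroportin genes, binds a core of the letters TGACNNNGC. RefSeq promoter windows on GRCm38.p6, from 250 bases before to 50 bases after a transcript start, were matched for 7 of the 10 genes (11 windows, since some genes have more than 1 start), and both strands were searched. Slc40a1, Slc11a2 and Fech were not searched. The core ACGTG was found in windows of Tfrc, Alad and Cpox, in 5 of 11 windows, against 19.6% of all 32851 windows. The 2 Tfrc windows overlap and hold the same core, which is counted in each. The core TGACNNNGC was found in 0 of these 11 windows, which do not include ferroportin, against 12.4% of all windows. Sites more than 250 bases before a start, and forms of a core with other letters, were not searched. The counts therefore do not show that a gene such as Fth1 lacks a site. Each stretch below runs 5′ to 3′ on the strand of the gene, with the core in capitals.
Tfrc (chr16:32608882-32608910, plus strand): ctcggtaggtgtACGTGcggaaggaagtg
Cpox (chr16:58670090-58670118, plus strand): aatccaaggtgtACGTGactaaagcgcct
Alad, upstream start (chr4:62520151-62520179, minus strand): ctccgaatgcccACGTGgaccccctcggg
Alad, downstream start (chr4:62519920-62519948, minus strand): cgccccgcccccACGTGggcttgcgcttt
In Tfrc the core straddles the first annotated start, beginning 2 bases before it, and the 6 bases directly before the core are the same in Tfrc and Cpox. In Alad both cores have a C before them, so that each reads CACGTG, which matches on both strands with an overlap. A match is a run of letters and not a measured site. The genes with the core had log2 differences of 0.24 (Tfrc), 0.32 (Cpox) and -0.16 (Alad), inside the range of the other 4 genes with a window, -0.19 (Alas1) to 0.56 (Ireb2).

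Tfrc and Slc11a2, the uptake genes among the 10, did not reach 2-fold when read by the brightest probe set. Tfrc, the receptor that takes up transferrin and a common mark of proliferating cells, had an intensity of 10497 in co-culture and 8887 in serum culture, a 1.18-fold difference. It has 6 probe sets, more than any other of the 10 genes, and they did not run 1 way. The next 2 in brightness were lower in co-culture, at 2662 and 1757 against 3387 and 2134 in serum culture, and another was nearly equal at 872 in co-culture and 885 in serum culture. The 2 dimmest were higher in co-culture, at 534 and 349 against 423 and 162 in serum culture. Their log2 differences ran between -0.35 and 1.11, so the direction for Tfrc depends on the probe set.

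Of those 6 probe sets, 3 are array controls placed along the Tfrc transcript, and their differences followed the position. The control at the 5′ end had a log2 difference of 1.11, the one in the middle 0.34 and the one at the 3′ end -0.28. The ratio of 3′ to 5′ intensity was 5.03 in co-culture and 13.2 in serum culture for Tfrc, 2.05 and 3.56 for beta-actin, and 1.88 and 2.54 for Gapdh, with the co-culture value first. A high ratio means that the 5′ part of a transcript is under-represented, as in shorter RNA or cDNA, and for all 3 transcripts it was lower in co-culture. The beta-actin controls had log2 differences of 1.23, 0.53 and 0.43 in the same 5′ to 3′ order, and those of Gapdh had 0.29, -0.21 and -0.14. The part of this gap in the other differences reported here was not tested.

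**Figure D2:**
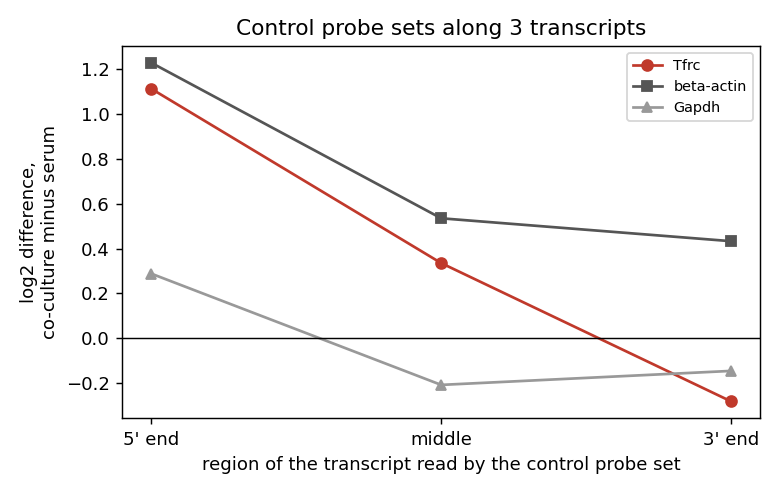
Log2 difference, co-culture minus serum, of the array's control probe sets at the 5′ end, the middle and the 3′ end of Tfrc, beta-actin and Gapdh (1 probe set per point, lines join the points of a gene). The 5′ value is the highest of the 3 for every gene, and Tfrc spans the most, from 1.11 to -0.28.

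Slc11a2, the divalent metal transporter that moves iron out of the endosome, had 361.6 in co-culture and 354.5 in serum culture by its brightest probe set, a log2 difference of 0.03. Its next probe set had 242 in co-culture and 206 in serum culture. The 2 dimmest differed more. The first had 206 in co-culture and 83.7 in serum culture, a 2.46-fold difference, and the other had 138 in co-culture and 57.0 in serum culture, a 2.41-fold difference. The brightest probe set and the one with the 2.46-fold difference are annotated to the same sequence record, so the annotation does not say which transcript form each reads. The gene is known to make transcripts with different ends, with and without an iron-responsive element, and these could not be told apart here. Averaged over its 4 probe sets the gene had a log2 difference of 0.71, and with spike scaling its brightest probe set had -0.16.

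Ferroportin was the gene with the largest difference among the 10. Slc40a1, the known exporter of non-haem iron from mammalian cells, had an intensity of 288 in co-culture and 97.1 in serum culture, 2.97-fold higher, or 1.57 on the log2 scale. Its other probe set, annotated to the same sequence record, had 59.3 in co-culture and 3.13 in serum culture. Since the serum value lies under the floor, that probe set gives a bound, at least 1.34-fold higher. Both probe sets were thus higher in co-culture, at intensities in the lower part of the range. Dim values ran higher on the co-culture array in general, with a median over all probe sets of 50.7 against 36.9 in serum culture. How far this enters the Slc40a1 difference was not tested. The Slc40a1 value was at least 2-fold in 7 of 9 alternative settings that gave one. It fell short with a floor of 200 (0.53 on the log2 scale) and with the mean over probe sets (0.99), and with a floor at percentile 75 the gene was not measured. Among the macrophage markers that share this gene, Adgre1 had 65.9 in co-culture and 7.39 in serum culture and Cd68 had 70.5 and 87.6. Cd163 and Csf1r were below the floor in both cultures, and the part of these values in the Slc40a1 difference was not tested.

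Ferritin heavy chain, which oxidises iron for storage in the ferritin shell, was bright on both arrays. Fth1 had 17435 in co-culture and 14150 in serum culture by 1 probe set, and 9927 in co-culture and 8450 in serum culture by the other. The probe sets were alike at 1.23-fold and 1.17-fold higher, 0.30 and 0.23 on the log2 scale, both under the error of 0.57. The identifier of the brighter one (_a_at) marks several transcripts of the same gene, and that of the other (_s_at) marks sequence shared with other genes. Ferritin heavy chain has processed copies in the genome, and reads of near-identical copies were not separated. The probe sets of the light chain, Ftl1, are each annotated with several symbols and were not used.

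The iron sensors were bright and differed little. Ireb2, the iron regulatory protein that is degraded when iron is plentiful, has 1 probe set, with 2835 in co-culture and 1927 in serum culture. This 1.47-fold difference, 0.56 on the log2 scale, is the second largest of the 10 genes and just under the error of 0.57. Aco1, which acts as cytosolic aconitase when it holds an iron-sulfur cluster and as an iron regulatory protein when it does not, had 1804 in co-culture and 1955 in serum culture. Its other measured probe set had 1775 in co-culture and 1648 in serum culture, so the direction differed between them (-0.12 and 0.11 on the log2 scale). A further Aco1 probe set was below the floor on both.

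**Figure D3:**
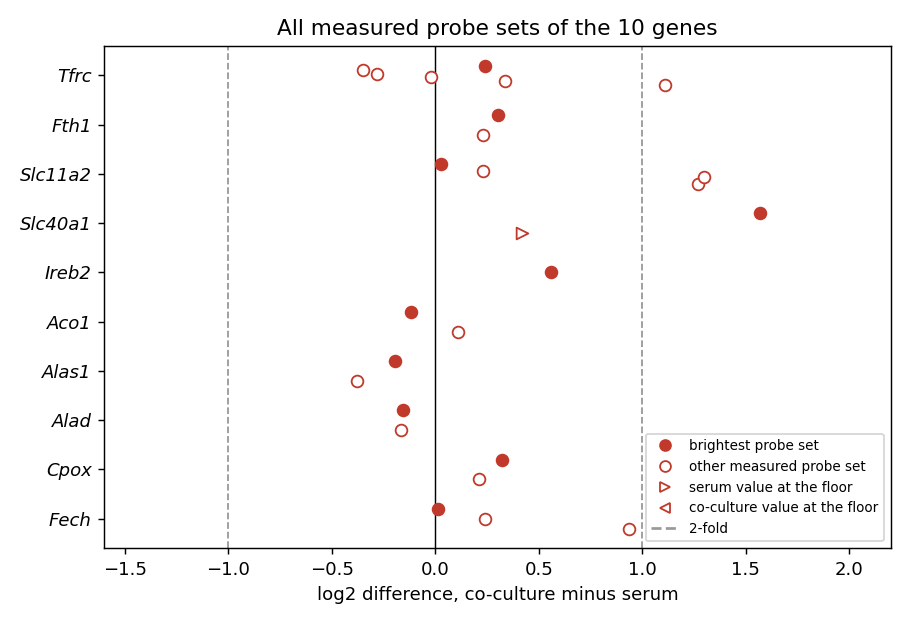
Log2 difference, co-culture minus serum, of all 26 measured probe sets of the 10 genes, with the brightest of each gene filled and 2-fold as dashed lines. A triangle marks a serum value at the floor, so that the difference is a lower bound. The 4 points beyond 2-fold belong to Tfrc, Slc11a2 and Slc40a1, and no point lies beyond 2-fold on the lower side.

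Counted over probe sets, 26 of 29 were measured, and 4 of the 26 (15.4%) passed 2-fold on the higher side, against 9.23% of all 25188 measured probe sets. None of the 26 was at least 2-fold lower, against 7.47% of all. The 4 were the 5′ control of Tfrc, the 2 dimmest probe sets of Slc11a2 and the brighter one of Slc40a1. Probe sets of 1 gene share their RNA and their array, so the count is a description. Of 9 genes with more than 1 measured probe set, 6 had all of them within 2-fold. The same share over all genes is not given here, so this count is a description too.

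Haem synthesis is described in pathway order. Alas1, the first and rate-limiting enzyme outside red cells, had 1343 in co-culture and 1536 in serum culture, and its other probe set had 793 in co-culture and 1031 in serum culture. Both were slightly lower in co-culture, by log2 differences of -0.19 and -0.38. Alad, which joins the product of Alas1 into a pyrrole ring, had 2738 in co-culture and 3053 in serum culture, and its other probe set had 273 in co-culture and 306 in serum culture. Its 2 log2 differences, both -0.16, were the closest pair among these genes. Alas2, the form of the first enzyme in red cell precursors, was not measured (3.49 in co-culture and 1.14 in serum culture).

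Cpox and Fech, later in the pathway, lay within 2-fold. Cpox, which makes protoporphyrinogen, had 1228 in co-culture and 982 in serum culture, a log2 difference of 0.32. Its second measured probe set had 65.8 in co-culture and 56.8 in serum culture, and 1 more was below the floor. Fech, which inserts iron into protoporphyrin to finish haem, had 1466 in co-culture and 1454 in serum culture, nearly the same. A second Fech probe set had 1407 in co-culture and 1192 in serum culture. Another, whose identifier marks no shared sequence, had 599 in co-culture and 314 in serum culture, 1.91-fold higher, and the last was below the floor. Fech therefore had log2 differences of 0.01, 0.24 and 0.93 by its measured probe sets. Its value was 0.93 in the setting that left out shared-sequence probe sets. That setting also dropped the probe set with 0.24, whose identifier (_a_at) marks transcripts of the same gene.

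Among the other enzymes of the pathway, Urod and Ppox were at least 2-fold lower by their brightest probe sets and Uros was within 2-fold. Urod, uroporphyrinogen decarboxylase, had 2625 in co-culture and 5950 in serum culture, 2.27-fold lower (-1.18 on the log2 scale), and its other probe set gave 1091 in co-culture and 2575 in serum culture (-1.24). Ppox, the last step before Fech, had 157 in co-culture and 549 in serum culture, 3.51-fold lower, though another probe set gave 139 in co-culture and 128 in serum culture. Uros, the enzyme before Urod, had 366 in co-culture and 340 in serum culture. Of 8 measured genes of this list of other haem synthesis genes 2 passed 2-fold on the lower side and 0 on the higher, against 9.97% and 4.52% of all measured genes, and the median was -0.12, against -0.06. With the mean over probe sets the count lower was 1. The largest positive difference in the list was that of Slc25a38, which brings glycine into mitochondria for the first step, with 360 in co-culture and 197 in serum culture (0.87 on the log2 scale). Urod and Ppox thus differed by more than the probe-set error by their brightest probe sets, while Alas1, Alad, Cpox and Fech did not. Whether these enzymes differ from each other was not tested.

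**Figure D4:**
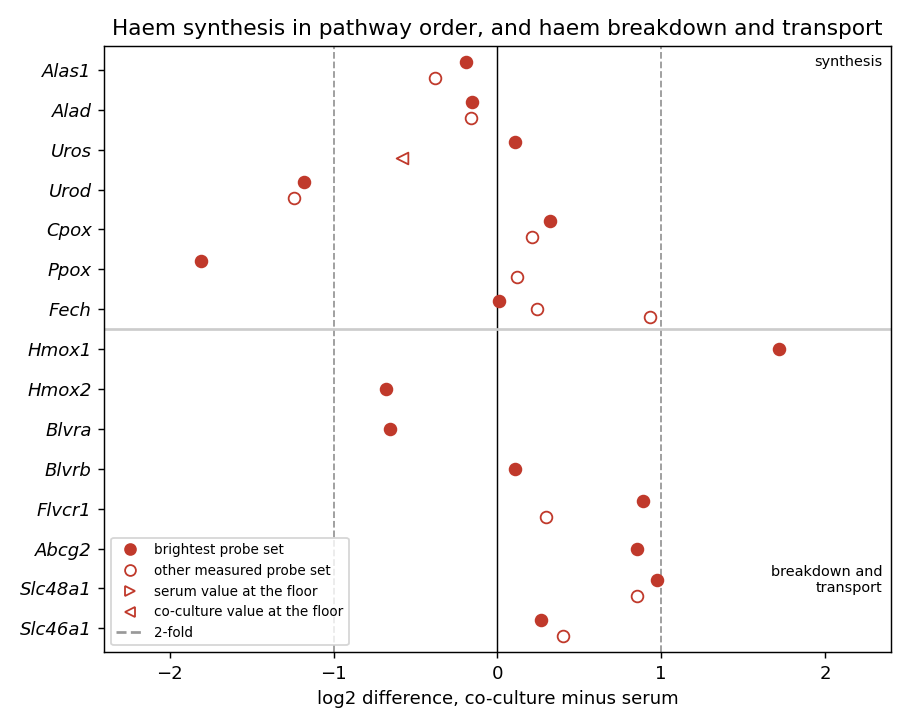
Log2 difference, co-culture minus serum, of measured probe sets of haem synthesis enzymes in pathway order (above the grey line) and of haem breakdown and transport genes (below it), with the brightest probe set filled, triangles where a value is at the floor and 2-fold as dashed lines. Urod lies near -1.2 by both of its probe sets and Ppox at -1.81 by 1 of its 2. Hmox1, which has 1 probe set, lies at 1.72. Lrp1 and Pgrmc1, also measured in the breakdown and transport list, are not drawn.

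Among genes that break down and move haem, 10 were measured, 1 passed 2-fold on the higher side and 0 on the lower, against 4.52% and 9.97% of all measured genes. The median log2 difference was 0.52, and it was 0.33 with spike scaling, 0.26 with a floor at percentile 25, 0.25 with a floor of 200 and 0.22 with the mean over probe sets. Hmox1, the inducible haem oxygenase that frees iron from haem, had 3326 in co-culture and 1010 in serum culture, 3.29-fold higher. Hmox1 has 1 probe set, so no other reading of it is available. Just under 2-fold were Slc48a1, which carries haem out of lysosomes, with 1919 in co-culture and 978 in serum culture, and Flvcr1, a haem exporter, with 2382 in co-culture and 1284 in serum culture. Abcg2, an efflux pump that also exports porphyrins, had 2460 in co-culture and 1363 in serum culture. The second probe set of Slc48a1 gave 0.85 on the log2 scale and that of Flvcr1 gave 0.30. Lrp1, of the same list, had 0.77 by its brightest probe set, while its other probe set was at least 2.63-fold lower. The constitutive oxygenase Hmox2 had 1335 in co-culture and 2141 in serum culture, and Blvra, which reduces the biliverdin that haem oxygenase makes, had 1205 in co-culture and 1894 in serum culture. Bach1, a haem-binding repressor of Hmox1 and of ferritin and ferroportin genes, had 1444 in co-culture and 2379 in serum culture (-0.72 on the log2 scale), and its other probe set had -0.29. Nfe2l2, the gene of NRF2, had 2357 in co-culture and 2240 in serum culture.

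Among 15 measured genes of the list of other iron uptake, storage and export genes, 1 passed 2-fold on the higher side and 4 on the lower, and the median was 0.06. Over all measured genes 4.52% were higher and 9.97% lower, so lower calls outnumber higher ones there too. With a floor at percentile 25 that order turned over all genes, with 2029 higher and 1599 lower. With the mean over probe sets the list had 0 higher and 2 lower. It had 0 higher and 2 lower of 9 measured with a floor at percentile 75, and 1 higher and 2 lower of 10 with a floor of 200. The gene higher among the 15 was Slc39a8, a metal importer of the plasma membrane that carries zinc, manganese and iron. It had 642 in co-culture and 224 in serum culture (2.86-fold). Its other probe set was below the floor on both arrays and entered the mean over probe sets with a difference of 0. Hfe, a class I-like partner of the transferrin receptor that is mutated in hereditary iron overload, had 58.6 in co-culture and 278 in serum culture, 4.74-fold lower, and its other probe set was at least 3.44-fold lower. Steap1, a metalloreductase family member, had 1578 in co-culture and 3667 in serum culture, 2.32-fold lower, and 2.11-fold lower by its other probe set. Mcoln1, a lysosomal cation channel that passes iron, was 2.39-fold lower, with 2.03-fold and 1.51-fold by its other probe sets. Steap2, a ferrireductase, was at least 2.24-fold lower, though 1 of its 3 measured probe sets was higher in co-culture.

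Further genes of this list lay within 2-fold. Ncoa4, the receptor that delivers ferritin to lysosomes, had 2014 in co-culture and 1574 in serum culture, and its other probe set gave a log2 difference of -0.07. Slc25a37, the mitochondrial iron importer, had 1637 in co-culture and 1124 in serum culture (0.54). Tfr2, the second transferrin receptor, had 78.6 in co-culture and 14.3 in serum culture, at least 1.78-fold higher. In the list of iron sensing genes 0 of 8 measured were past 2-fold, against 4.52% higher and 9.97% lower over all measured genes. The count higher was 1 with a floor at percentile 25 and 1 with the mean over probe sets. Smad5, in this list, had a log2 difference of 0.58 by its brightest probe set and 1.25 and 2.15 by its others. Fbxl5, the iron-sensing ubiquitin ligase subunit that marks Ireb2 for degradation, had 2325 in co-culture and 1451 in serum culture, a log2 difference of 0.68 beside the 0.56 of Ireb2 itself.

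Among messenger RNAs known to carry an iron-responsive element, 6 were measured and all 6 had a log2 difference above 0, though 5 of 6 did under spike scaling and under the mean over probe sets. Of these 6 genes 1 (Slc40a1) was at least 2-fold higher and 0 lower, against 4.52% and 9.97% of all measured genes. The median was 0.27, against -0.06 over all measured genes. The count higher was 0 with floors at percentile 75 and at 200 and with the mean over probe sets. The list shares Tfrc, Fth1, Slc11a2 and Slc40a1 with the 10 genes, so it is not separate evidence. Of the others, whose elements were described in human transcripts, Cdc14a had 318 in co-culture and 248 in serum culture and Cdc42bpa had 166 in co-culture and 141 in serum culture. The other 2 measured probe sets of Cdc42bpa were lower in co-culture (-0.14 and -0.74 on the log2 scale). The element of Tfrc stabilises its mRNA when iron is low, while those of Fth1 and Slc40a1 act on translation, which arrays do not read.

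Iron-sulfur cluster assembly, the other main mitochondrial use of iron, had 4 of 18 measured genes past 2-fold on the lower side and 0 on the higher, against 9.97% and 4.52% of all measured genes, and its median was -0.11. The count lower was 2 with the mean over probe sets and 1 with a floor at percentile 75. Iba57, a late assembly factor, had 46.7 in co-culture and 128 in serum culture (2.74-fold lower). Nubp1, a cytosolic scaffold, had 326 in co-culture and 866 in serum culture (2.66-fold lower). Both had another measured probe set that was higher in co-culture, with a serum value at the floor (at least 0.56 for Iba57 and at least 0.75 for Nubp1 on the log2 scale). A brighter one of Nubp1 had 398 in co-culture and 442 in serum culture (-0.15). The co-chaperone Hscb, with 344 in co-culture and 744 in serum culture, and the electron donor Fdx1, with 213 in co-culture and 444 in serum culture, have 1 measured probe set each. The scaffold Iscu had 1704 in co-culture and 2040 in serum culture (-0.26).

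**Figure D5:**
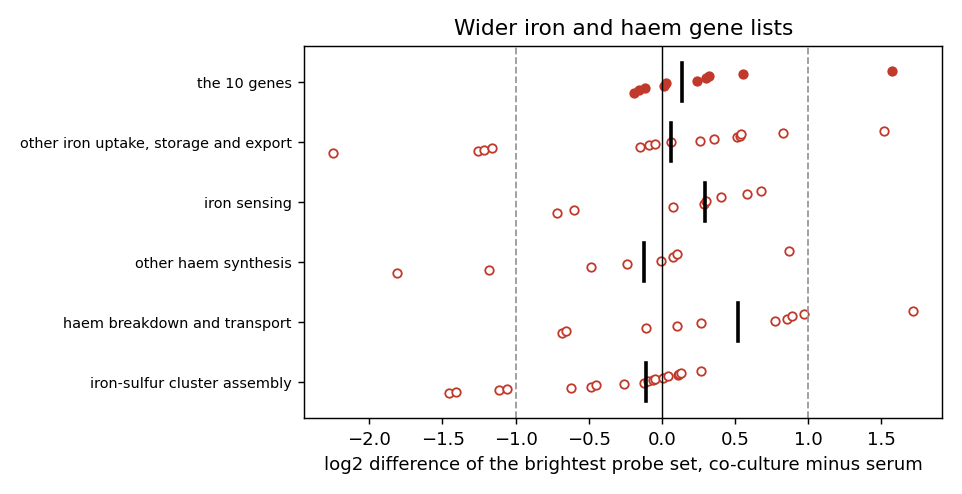
Log2 difference, co-culture minus serum, of each measured gene by its brightest probe set, for the 10 genes (filled) and 5 further lists (open), with the median of each list as a black bar and 2-fold as dashed lines. Medians lie between -0.12 (other haem synthesis) and 0.52 (haem breakdown and transport).

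Over all 61 measured genes of the wider lists, the 10 genes left out, 2 were at least 2-fold higher (Hmox1 and Slc39a8), 10 at least 2-fold lower and 49 within 2-fold, against 4.52% higher and 9.97% lower over all measured genes. The median log2 difference was 0.05, against -0.06 over all measured genes.

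Markers of red cell precursors, which make most haem in the body, were mostly at background. Of 14 such genes on the array 4 were measured, and the sum over all 14 was 3648 in co-culture and 1382 in serum culture. Gata1, Epb42, Rhag, Hemgn and Alas2 did not reach the floor, and Klf1 had 6.90 in co-culture and 85.8 in serum culture. Slc4a1, the red cell anion exchanger, had 642 in co-culture and 11.0 in serum culture and a second probe set had 483 in co-culture and 10.3 in serum culture, while another was below the floor on both. A probe set annotated to Hba-a2, an alpha globin, had 2857 in co-culture and 1114 in serum culture and made up most of the sum on both arrays. The other 14 globin probe sets reached at most 62.1 in co-culture and 28.2 in serum culture.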

How the data were processed

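Each value is a linear intensity for 1 probe set, as deposited by the authors. Per the labels' protocols, column-purified total RNA was copied from a T7-oligo(dT) primer and transcribed into biotin-labelled cRNA. For array software, background correction and scaling, the step is not given in the sources used here. Both arrays had a trimmed mean (2% off either end) of 500.003, as the values show. Names come from the platform annotation, with symbols updated by gene number to RefSeq GRCm38.p6 (34958 with 1 symbol, 932 with several and 9211 with none). Some genes of the wider lists are not reported here.

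Values below the floor (44.3) were set to it before log2. A gene took its brightest probe set, and higher or lower means a log2 difference of at least 1 in size. With 1 array per group no test was made, and the number of arrays limits the precision. Members and lists were chosen with earlier results of these data known. Genes were named by a rule: all 10 members, up to 4 genes past 2-fold per list or the 2 largest where none was, and a fixed set. Slc48a1, Flvcr1, Abcg2, Hmox2, Blvra, Lrp1, Pgrmc1, Smad5, Slc25a38, Nfe2l2, Cdc14a and Cdc42bpa were added with their values known. The 10 alternative settings used floors at percentiles 25 and 75 and at 200, a pseudocount of 16, median subtraction, quantile normalization, spike scaling (18 probe sets), the mean over probe sets, and leaving out shared-sequence or control probe sets. Shared-sequence probe sets were those with an identifier ending in _a_at, _s_at or _x_at, although _a_at marks transcripts of the same gene. Steps were tested on simulated data. Python 3.11.15, numpy 2.4.6 and pandas 2.3.3 were used.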

Additional observations from a re-analysis of the deposited data

How the results depend on the processing

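The count of the 10 genes at least 2-fold higher was 1 under 7 of 10 alternatives and 0 with a floor at percentile 75, a floor of 200 and the mean over probe sets. The higher floors take in the serum value of Slc40a1, and the mean takes in its second probe set, whose serum value is at the floor. The count lower was 0 under all 10. Among the wider lists, the count higher was 5 with a floor at percentile 25 and 1 at percentile 75, against 2, and the count lower was 4 with a floor at percentile 75 and 5 with the mean over probe sets, against 10; the cause was not tested. Over all genes the count higher was 2029 and 143 at the floors of percentiles 25 and 75, 218 at a floor of 200 and 853 with the pseudocount, against 523. The count lower was 1599 and 397 at the floors of percentiles 25 and 75, against 1152. It was 656 at a floor of 200 and 653 with the mean over probe sets. Of 97 values of single members under the alternatives, 94 moved by less than the within-gene SD. The 3 others were Slc40a1 at a floor of 200 (0.53), Slc11a2 with the mean over probe sets (0.71) and Fech without shared-sequence probe sets (0.93). Many values could not move that far. The changed floors and leaving out control probe sets returned the same value for every measured member but Slc40a1. Median subtraction and spike scaling shifted all members by a constant smaller than that SD. Slc40a1, the called gene, kept its sign, while Slc11a2 (-0.16) and Fech (-0.18) fell below 0 with spike scaling. Of 120 counts for single lists, 18 moved by more than 1.5 times. No paired analysis was possible because each group has 1 array. Low intensity limits Slc40a1, Tfr2, the dimmer probe sets of Slc11a2, and Hfe and Steap2 through their co-culture values.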

Other observations

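Slc39a14 and Smad5, genes at the edge of iron control, had probe sets that disagreed in size but not in direction. Slc39a14, a metal importer that takes up iron not bound to transferrin, had 1161 in co-culture and 801 in serum culture by its brightest probe set, while a dimmer one had 233 in co-culture and 69.7 in serum culture, 3.34-fold higher. Smad5, a signal transducer of the bone morphogenetic protein pathway that controls hepcidin in liver, had log2 differences of 0.58, 1.25 and 2.15 by its 3 measured probe sets, with the smallest at the brightest. Hamp, the gene of hepcidin, had 53.0 in co-culture and 38.1 in serum culture, close to the floor.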
